A study of Mus musculus with 2 samples.

Results

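The genes described here are the cyclins, the cyclin-dependent kinases (Cdks), their inhibitors and the E2f and Rb families, measured as poly(A) RNA in mouse embryonic stem cells. They were chosen by a rule on gene symbols that left out Cdkn1c by name. Of the 15127 protein-coding genes in the deposited count table, 75 met the rule. The annotation (GENCODE M21) holds 79 such genes, and the 4 that were not in the table were Ccnb3, Wee1, Cdk10 and Cdk5r2. The symbol rule also took in genes named for a link to a Cdk, its regulators or an inhibitor, such as Cdk2ap1, Cdk5rap3 and Cdkn2aip. It took in Cdkn3 too, which was not put with the inhibitors. Those genes, the cyclins of other pathways and the kinases of the Cdk5 and Cdk16 branches were kept as 24 other members, beside 10 genes of G1, 10 of S, G2 and M, 16 of transcription, 6 inhibitors and 13 of the E2f-Rb module. The cells were pSM44, a female line from an F1 cross of 129 with castaneous mice, in which a tetracycline-inducible promoter drives Xist from its own locus on the 129 allele. Both libraries belonged to 1 group, kept with doxycycline (2 μg/mL, 24 h) in 2i/LIF, a serum-free medium with kinase inhibitors and the cytokine LIF, so every cell measured here had been given the inducer of Xist. The table gave 1 column of counts for the group, with 10017978 counts in total, so no value has a replicate error and no comparison between conditions could be made. The labels name no synchronisation and no sort. Each level is therefore a mean over the cells of a culture, in which fewer cells of a phase and less RNA per cell cannot be told apart.

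Cyclins are the regulatory subunits that switch on Cdks. D-type cyclins with Cdk4 or Cdk6, and E-type cyclins with Cdk2, phosphorylate the Rb family and so release E2f transcription factors, which turn on genes of DNA replication. Cyclins A and B, with Cdk1 among their kinases, carry cells through S phase, G2 and mitosis. A separate branch of cyclins and Cdks acts on RNA polymerase II. Mouse embryonic stem cells are known for a short G1 phase.

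Nearly all of these genes were detected. Counts were scaled by the table total to CPM, and a CPM of 1 took 11 counts. At CPM 1 or more, 73 of 79 members were present, or 92.4%, against 55.0% of all annotated protein-coding genes and 57.7% of those with at most 0.1 of their exonic bases under another gene. The other 6 were the 4 unlisted genes and Cdk15 and Cdk5r1, with 2 and 3 counts. The members held 69702 counts, or 0.696% of the total (exact Clopper-Pearson 95% interval 0.691 to 0.701), and the 5 with the most counts held 31.2% of that sum. Levels between genes are given below as CPM per kilobase of exon, since longer transcripts yield more reads. This scale takes all counts as exonic, and whether reads from introns were counted as well was not tested. The deposited rows were ordered by count per base of gene span, introns included (Spearman rho across genes 0.9999). No level or ratio below was divided by that span, so how they would stand on it is not known. On that scale the members had a median of 9.30, against 0.677 for all annotated genes, with unlisted genes entered at 0 in both. A level of 10 CPM per kilobase or more was reached by 36 of 79 members (45.6%), against 21.2% of all annotated genes. Intervals on single levels are exact Poisson 95% intervals and cover counting error only.

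The cells carried the markers of their label. All 10 embryonic stem cell markers lay between 37.0 CPM per kilobase (Sall4) and 7619 (Dppa5a). Fibroblast and feeder markers summed to 45.8 CPM over 10 genes, 4 of which (Col3a1, Dcn, Lum and Postn) were not listed, and the highest was Thy1 at 8.90 CPM per kilobase. Markers of differentiated derivatives summed to 46.9 CPM over 10 genes, led by T at 5.22 CPM per kilobase. At CPM 1 or more were 6 of these 10 and 4 of the 10 fibroblast and feeder markers, against 55.0% of all annotated genes. Sox1 entered the sum at 0 but lay wholly inside another gene, so its absence cannot be read as absence of RNA. The part of feeder or differentiated cells in the levels below was not tested.

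Position in the annotation moved with whether a gene was listed at all. The 4 unlisted members were 4 of 79, against 31.4% of all annotated genes. Of 1273 annotated genes that lay wholly inside the span of another gene, 94.4% were not in the table, against 27.6% of those that did not. The members Wee1, Cdk10 and Cdk5r2 were of this kind, so their absence cannot be read as absence of RNA. Cdkn2aipnl lay wholly inside a non-coding gene as well, yet had 790 counts. Ccnb3, a cyclin known from meiosis, had no overlap and was not listed. In all, 20 members had more than 10% of their exonic bases under another gene, and that share is given where it touches a result.

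Promoter sequences of the cell cycle members differed in the motifs they held. RefSeq promoter windows (GRCm38.p6; 250 bases before to 50 after the start) were found for 64 members. They were searched on both strands for TTTNNCGC, an E2F-type match, for CCAAT, the box bound by NF-Y, and for TTTGAA, a match to the cell cycle homology region (CHR) of late cell cycle genes. TTTNNCGC and TTTGAA share their first letters but cannot both match at 1 place, and CCAAT is distinct. A gene counted once however many windows it had. The 6 stretches below run from 170 bases before the start to the base before it, 5′ to 3′, with every match in capitals. They were chosen to show a G1 kinase without a match beside a G1 phosphatase with 2 kinds, then a pair of mitotic genes, a pocket protein and a transcriptional kinase. In Cdk1 the last 26 bases lie inside the GENCODE gene.
Cdk4 (chr10:127063365-127063534, plus strand): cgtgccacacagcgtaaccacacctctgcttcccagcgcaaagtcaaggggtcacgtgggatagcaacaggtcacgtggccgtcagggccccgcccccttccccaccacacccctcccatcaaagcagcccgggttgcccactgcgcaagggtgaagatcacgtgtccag
Cdc25a (chr9:109875409-109875578, plus strand): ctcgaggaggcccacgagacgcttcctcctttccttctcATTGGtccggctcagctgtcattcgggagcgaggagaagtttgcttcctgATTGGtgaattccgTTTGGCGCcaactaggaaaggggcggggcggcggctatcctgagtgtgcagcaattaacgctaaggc
Cdk1 (chr10:69352913-69353082, minus strand): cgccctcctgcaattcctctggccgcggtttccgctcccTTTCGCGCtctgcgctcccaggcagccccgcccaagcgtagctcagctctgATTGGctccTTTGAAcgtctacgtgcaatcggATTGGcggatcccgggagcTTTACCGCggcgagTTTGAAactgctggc
Ccnb2 (chr9:70421555-70421724, minus strand): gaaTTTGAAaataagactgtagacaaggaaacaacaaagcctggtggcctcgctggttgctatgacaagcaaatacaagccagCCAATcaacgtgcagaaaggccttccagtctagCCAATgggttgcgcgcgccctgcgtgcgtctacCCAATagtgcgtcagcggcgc
Rbl1 (chr2:157204535-157204704, minus strand): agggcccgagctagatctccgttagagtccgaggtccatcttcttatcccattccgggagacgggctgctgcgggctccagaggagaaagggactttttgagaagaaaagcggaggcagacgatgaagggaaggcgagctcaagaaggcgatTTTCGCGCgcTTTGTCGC
Cdk7 (chr13:100730943-100731112, minus strand): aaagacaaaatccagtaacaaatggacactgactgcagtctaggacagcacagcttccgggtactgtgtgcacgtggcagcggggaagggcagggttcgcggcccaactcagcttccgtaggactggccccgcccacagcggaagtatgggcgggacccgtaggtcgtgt
Cdk1 held 2 E2F-type, 2 CCAAT and 2 CHR-type matches in this stretch, and Ccnb2 held 3 CCAAT and 1 CHR-type match. Cdc25a held 1 E2F-type and 2 CCAAT matches. Rbl1 had 2 E2F-type matches, which begin 18 and 8 bases before the start. The stretches of Cdk4 and Cdk7 had none of the 3.

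Over the whole windows, S/G2/M genes most often had the CCAAT box, in 6 of 7, against 41.1% of all 27025 genes with a window. Their CHR-type matches were in 3 of 7 (Cdk1, Ccnb2 and Ccnf), against 20.2% of all genes. E2f-Rb genes had a CHR-type match about as often, in 4 of 10. Over all members it was in 14 of 64, or 21.9%, which is near the share of all genes. E2F-type matches were in 5 of 10 E2f-Rb genes and 3 of 7 G1 genes (Cdc25a, Cdk2 and Cdk6), against 5.93% of all genes. Among 14 transcriptional members none had an E2F-type or a CHR-type match, and 6 had a CCAAT box. All 3 motifs occurred in 1 window in Cdk1 and E2f3, which is 2 of 64 members, against 0.374% of all genes. E2f2 also had all 3, but its E2F-type and CHR-type matches lay in separate windows of 2 start sites. These are letter matches in a fixed window, and the number of genes per role is small. The 27025 genes with a window were not limited to the 21992 annotated protein-coding genes, and no match for base content was made. Windows were not found for Ccna2, Ccnd1, Ccnd2, Ccne2, Ccnh, Ccny, Cdc25c, Cdk17, Cdk19, Cdk5, Cdk5r1, E2f4, E2f5, Rb1 and Wee1.

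**Figure D1:**
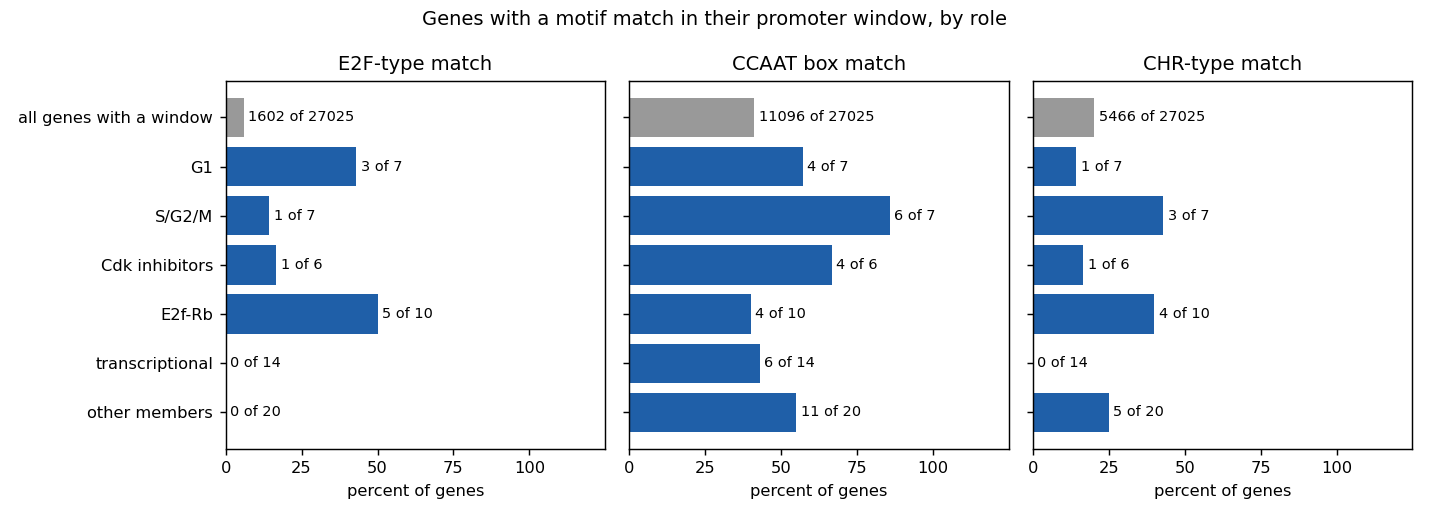
Percent of genes (x axis) in each role (rows) whose promoter window holds an E2F-type, CCAAT or CHR-type match, with the counts printed beside each bar and all genes with a window in grey. S/G2/M genes have CCAAT in 6 of 7, and transcriptional genes have neither an E2F-type nor a CHR-type match in 14.

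Among G1 genes, each set of paralogs (Cdk4 and Cdk6, the D-type and the E-type cyclins) had 1 high member and 1 or more lower ones. Cdk4, the kinase that pairs with D-type cyclins, was the highest of all members per kilobase of exon, with 5749 counts and 177 CPM per kilobase of exon (95% interval 172 to 181). That placed it above 98.4% of listed genes, although 19.7% of its exonic bases lie under Tspan31. Its sister kinase Cdk6, which can take its place, had 305 counts and 2.18 CPM per kilobase (1.94 to 2.43). The Cdk4 level was 81.2 times that of Cdk6 per kilobase of exon (95% interval from the exact binomial split of the counts, 72.3 to 91.4). Per kilobase of coding sequence the ratio was 20.3, since only 978 of 13989 exonic bases of Cdk6 are coding. Cdk6 did not differ from Ccne2, the next gene in this order, beyond counting error per kilobase of exon. It was higher per kilobase of coding sequence, at 31.1 against 4.86, and lower by exonic bases outside other genes, at 2.24 against 4.55.

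D-type cyclins, which respond to growth signals, followed the same form. Ccnd3 had 4720 counts and 53.7 CPM per kilobase (52.2 to 55.2), Ccnd1 had 621 counts and 13.2 (12.1 to 14.2), and Ccnd2 had 18 counts and 0.191 (0.113 to 0.302). Ccnd1 stood at 0.245 of the Ccnd3 level per kilobase (0.225 to 0.267) and at 68.9 times that of Ccnd2 (43.3 to 117). Other genes cover 37.6% of the exonic bases of Ccnd1 and 28.7% of those of Ccnd2, and the part of this overlap in the low values was not tested. With all counts divided by the uncovered exonic bases alone, Ccnd1 was at 0.377 of Ccnd3, and the order of the 3 held. A processed pseudogene, Ccnd3-ps, matches the whole coding sequence of Ccnd3 at 96.2% identity, which makes single reads of Ccnd3 uncertain.

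Ccne1, the E-type cyclin that activates Cdk2 at the start of S phase, was second among G1 genes per kilobase of exon, with 2309 counts and 86.6 CPM per kilobase (83.1 to 90.2). Ccnd3 was second by CPM (471 against 230) and per kilobase of coding sequence (474 against 173). Ccne2 had 59 counts and 1.69 (1.28 to 2.17), and the ratio was 51.4 (39.7 to 67.7). The exons of Ccne2 lie to 62.9% under Ints8, and by uncovered bases the ratio was 19.0. Per kilobase of coding sequence it was 35.7. Cdk2 itself had 1242 counts and 19.9 CPM per kilobase (18.8 to 21.1). Cdc25a, the phosphatase that frees Cdk2 from inhibitory phosphates and whose promoter is printed above, had 1413 counts and 17.6 (16.7 to 18.5). Skp2, which marks the inhibitor encoded by Cdkn1b for destruction, had 784 counts and 9.94 (9.25 to 10.7).

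Mitotic cyclins and Cdk1 formed the group of highest levels among the S/G2/M genes per kilobase of exon. Ccnb2 had 1926 counts and 125.6 CPM per kilobase (120.0 to 131), Ccnb1 had 3318 counts and 78.5 (75.9 to 81.3), Cdk1 had 2756 counts and 55.8 (53.7 to 57.9), and Ccna2 had 2229 counts and 54.5 (52.3 to 56.8). Cdk1 and Ccna2 did not differ beyond their counting intervals on this scale, but per kilobase of coding sequence they were at 308.8 and 169. The order of the B-type cyclins turned with the length used, since Ccnb1 was at 0.625 of Ccnb2 per kilobase of exon (0.591 to 0.662) but at 1.59 per kilobase of coding sequence and 1.72 by CPM alone. Ccnb1 also has 3 pseudogenes that match its whole coding sequence at 97.3% to 99.2% identity. Ccnf, a cyclin that serves as the substrate receptor of a ubiquitin ligase, had 2285 counts and 29.2 (28.1 to 30.5).

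Lower in the same group were the mitotic phosphatases and the germline cyclin. Cdc25b had 289 counts and 7.74 CPM per kilobase (6.87 to 8.68), and Cdc25c had 305 counts and 6.19 (5.51 to 6.92). Cdc25a exceeded Cdc25b by a ratio of 2.27 per kilobase of exon (2.00 to 2.59) and of 5.58 per kilobase of coding sequence. Ccna1, a cyclin of male meiosis, had 34 counts and 1.85 (1.28 to 2.58), so that Ccna2 was 29.5 times as high (21.02 to 42.7) per kilobase of exon and 66.3 times per kilobase of coding sequence. Wee1, the kinase that opposes the Cdc25 phosphatases, was not listed and lay inside another gene. Its relative Pkmyt1 from the list of partners had 587 counts and 16.1 (14.8 to 17.4).

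**Figure D2:**
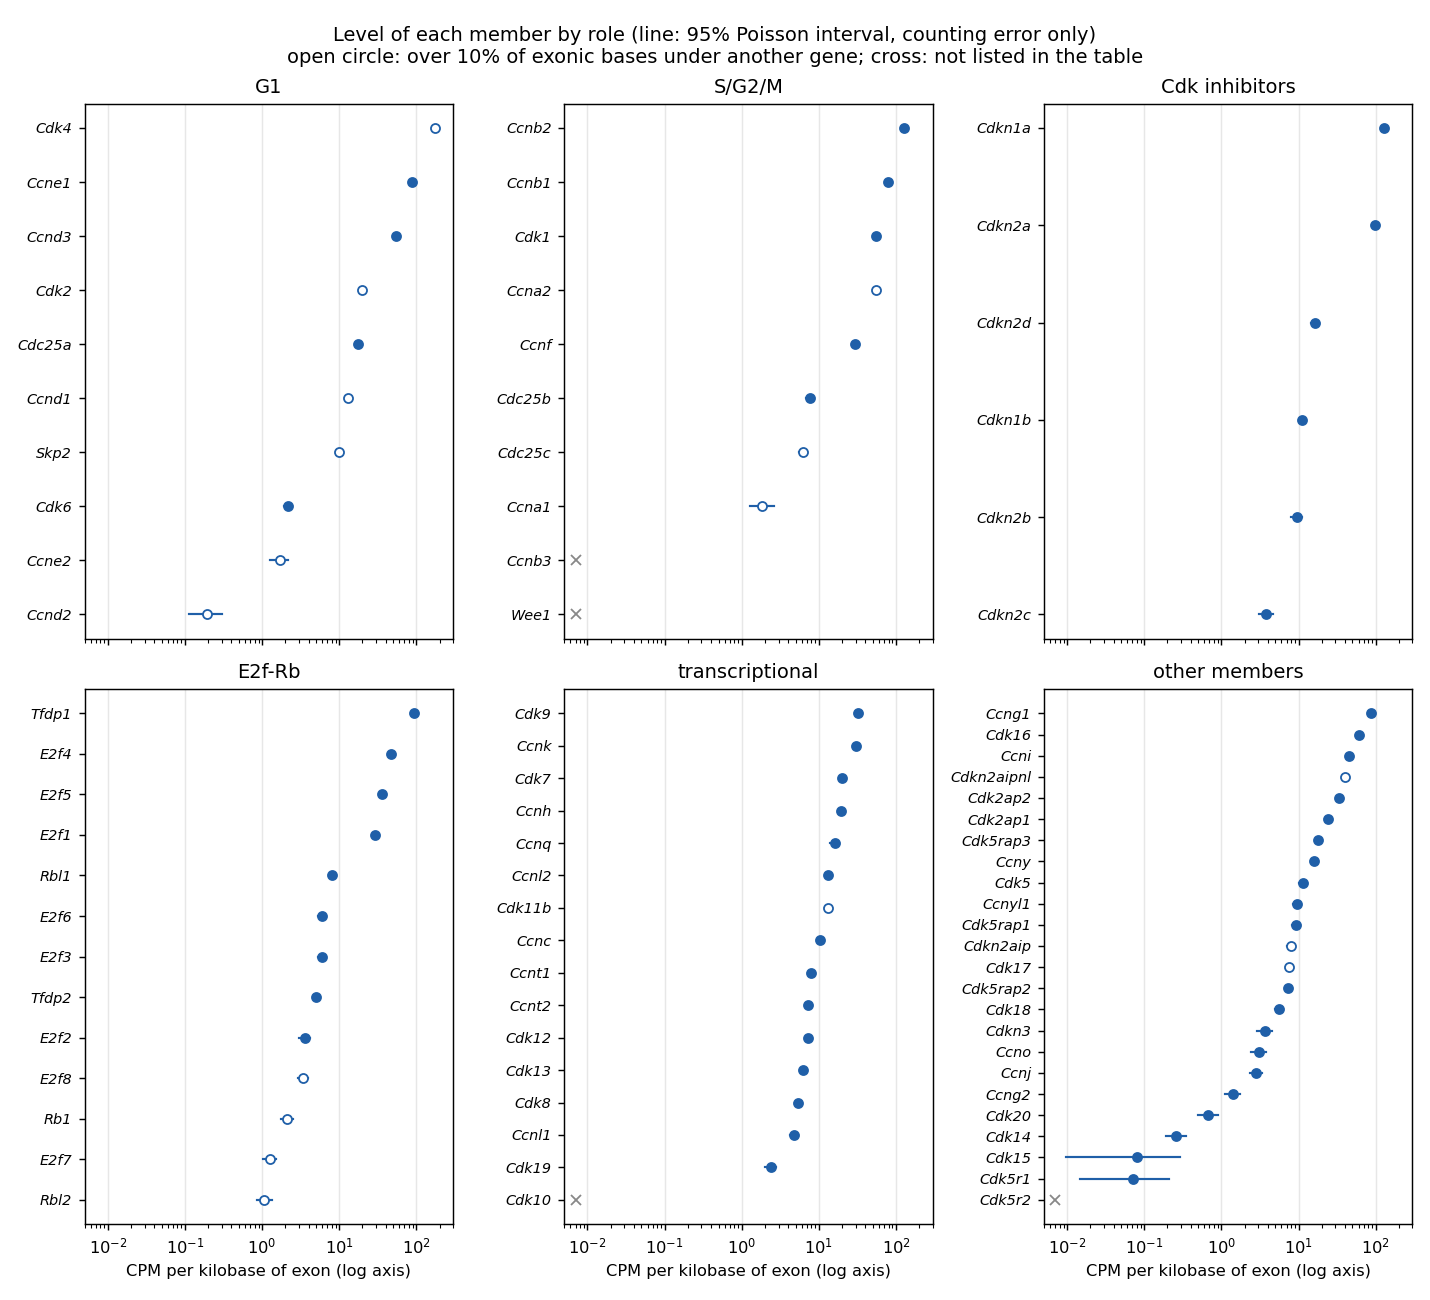
CPM per kilobase of exon (x axis, log) of each member, 1 panel per role, with lines for exact Poisson 95% intervals, open circles for genes with more than 10% of exonic bases under another gene and crosses for genes not listed. G1 genes span from 0.191 (Ccnd2) to 177 (Cdk4), whereas the listed transcriptional genes lie between 2.37 (Cdk19) and 32.4 (Cdk9).

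All 6 genes classed as Cdk inhibitors were above CPM 1. The rule leaves out Cdkn1c, and Cdkn3 was kept with the other members, at 87 counts and 3.66 CPM per kilobase (2.93 to 4.52). Cdkn1a and Cdkn2a were among the 4 highest members per kilobase of exon. Cdkn1a, which encodes p21 and is a well-known target of p53, had 4501 counts and 126.5 CPM per kilobase (122.8 to 130.2), next to Cdk4 and with an interval that overlapped that of Ccnb2. On the scale of coding length it was above both, at 942 against 631 for Cdk4 and 161 for Ccnb2. Cdkn1b, which encodes p27, had 513 counts and 11.2 (10.3 to 12.3), and the Cdkn1a level was 11.2 times as high (10.3 to 12.3). Cdkn2a had 1166 counts and 99.3 CPM per kilobase (93.7 to 105), or 168 per kilobase of coding sequence, where Ccnd3, Ccng1, Cdk1, Tfdp1 and Ccnb1, among others, were higher. This locus (chromosome 4, 89274471 to 89294653, GRCm38) encodes both the Cdk4 and Cdk6 inhibitor p16Ink4a and the Mdm2 antagonist p19Arf from alternative first exons, and a count per gene does not separate them. The other Ink4 genes were lower, with 258 counts and 16.4 for Cdkn2d (14.4 to 18.5), 132 counts and 9.48 for Cdkn2b (7.93 to 11.2), and 102 counts and 3.79 for Cdkn2c (3.09 to 4.602). None of the 6 had more than 10% of its exonic bases under another gene. Among p53 pathway genes of the partner list, Trp53 had 92.5 CPM per kilobase (89.6 to 95.5) and Mdm2 41.2 (39.4 to 43.0), and Ccng1, a cyclin gene that is another known p53 target, had 86.0 (83.0 to 89.1).

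In the E2f-Rb module Tfdp1, E2f4, E2f5 and E2f1 stood above the rest per kilobase of exon, and the other 9 genes, all 3 pocket protein genes among them, lay at 8.06 CPM per kilobase or below. Tfdp1, the dimerisation partner of most E2f proteins, had 3435 counts and 93.4 CPM per kilobase (90.3 to 96.6), and Tfdp2 had 708 counts and 5.04 (4.67 to 5.42). Their ratio was 18.5 per kilobase of exon and 5.72 per kilobase of coding sequence. A processed pseudogene matches the whole coding sequence of Tfdp1 at 97.6% identity. E2f4 and E2f5, classed as repressors that act with the pocket proteins, had 1147 and 644 counts, or 46.7 (44.0 to 49.5) and 36.1 (33.3 to 39.0). Among the activators E2f1 had 920 counts and 29.1 (27.3 to 31.1), while E2f3 had 5.90 (5.27 to 6.58) and E2f2 had 3.56 (3.05 to 4.13). E2f6, a repressor that acts without pocket proteins, had 5.96 (5.34 to 6.63), which did not differ from E2f3 beyond counting error, though per kilobase of coding sequence they were at 36.2 and 23.1. The atypical repressors E2f8 and E2f7 had 185 and 113 counts, or 3.39 and 1.25, with 47.0% and 30.2% of their exonic bases under other genes.

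Of the pocket proteins, Rbl1 (p107) had 484 counts and 8.06 CPM per kilobase (7.36 to 8.81), Rb1 had 128 counts and 2.12 (1.77 to 2.53), and Rbl2 (p130) had 81 counts and 1.07 (0.850 to 1.33). Rbl1 was 3.795 times as high as Rb1 (3.12 to 4.65) and 7.54 times as high as Rbl2 (5.95 to 9.66). Overlap touches this order, since 59.7% of the exonic bases of Rb1 and 39.5% of those of Rbl2 lie under other genes, and none of Rbl1. By uncovered bases the ratios were 1.53 and 4.56, and Rbl1 was still the highest of the 3.

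**Figure D3:**
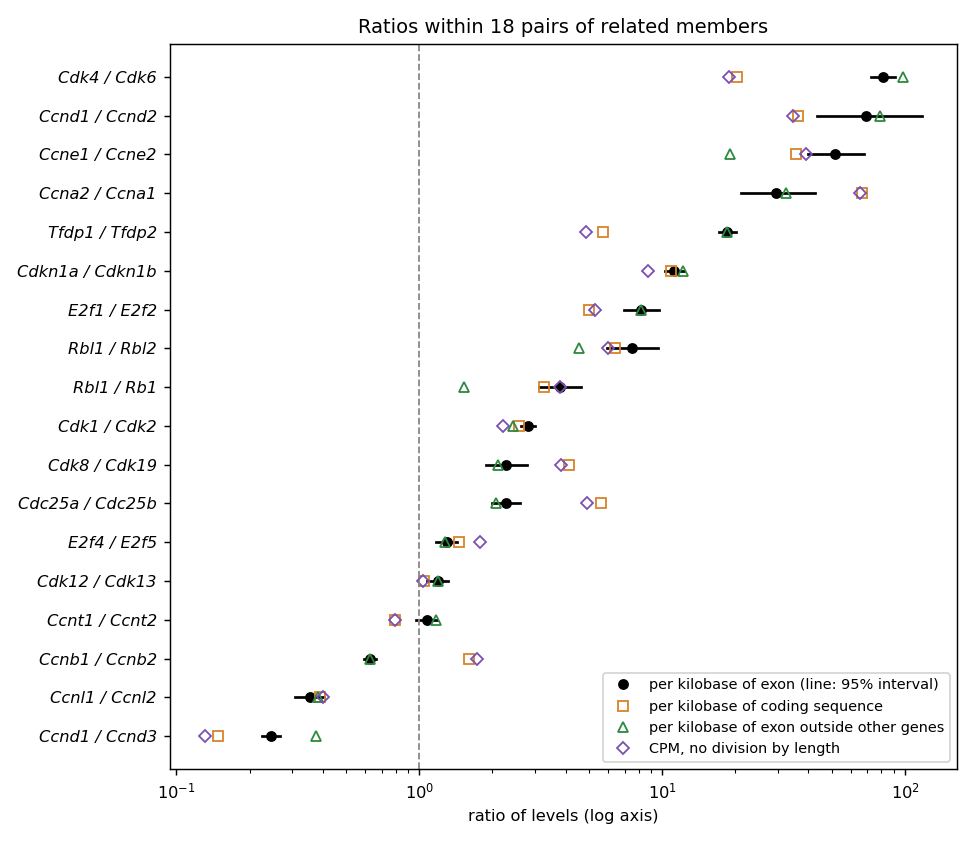
Ratio of levels (x axis, log) within 18 pairs of related members (rows), with the 95% counting interval on the value per kilobase of exon and 3 other ways to account for length. Pairs such as Cdk4 and Cdk6 stay far from 1 on each scale, and the values of Ccnb1 to Ccnb2 and of Ccnt1 to Ccnt2 fall on both sides of it.

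Transcriptional cyclins and Cdks had levels that lay within a narrower span. Cdk9, the kinase of the elongation factor P-TEFb, led with 1497 counts and 32.4 CPM per kilobase (30.8 to 34.1). Its partners Ccnt1 and Ccnt2 had 719 and 905 counts, or 7.84 (7.28 to 8.43) and 7.32 (6.85 to 7.81). Those T-type cyclins did not differ beyond counting error, with a ratio of 1.07 (0.970 to 1.18) that fell to 0.793 per kilobase of coding sequence. Cdk7 and Ccnh, which form the kinase of the general factor TFIIH and also activate the cell cycle Cdks, had 20.2 (18.8 to 21.7) and 19.6 (18.1 to 21.2). The assembly factor of that complex, Mnat1, had 11.1 (10.2 to 12.05).

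Of the kinases that phosphorylate the polymerase during elongation, Cdk12 had 859 counts and 7.31 CPM per kilobase (6.83 to 7.82), and Cdk13 had 828 counts and 6.14 (5.73 to 6.58). Their cyclin gene Ccnk had 910 counts and 29.9 (28.0 to 31.9). In the Mediator kinase module, Ccnc had 10.4 (9.56 to 11.3), Cdk8 had 532 counts and 5.40 (4.95 to 5.88), and its paralog Cdk19 had 139 counts and 2.37 (2.00 to 2.80). Cdk8 exceeded Cdk19 by a ratio of 2.28 per kilobase of exon (1.88 to 2.76), 4.13 per kilobase of coding sequence and 3.83 by CPM. A processed pseudogene matches 51.5% of the Cdk8 coding sequence at 98.3% identity. Ccnl2 and Ccnl1, cyclins tied to splicing, had 704 and 283 counts, or 13.3 (12.3 to 14.3) and 4.71 (4.18 to 5.29). Their kinase gene Cdk11b had 488 counts and 13.0 (11.9 to 14.2), with 60.0% of its exonic bases under another gene. Cdk10 was not listed and lay inside another gene, while Ccnq, the cyclin that activates it, had 196 counts and 16.0 (13.8 to 18.4).

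The span of levels was compared for G1, S/G2/M and transcriptional genes. Among 10 G1 genes the highest level was 925 times the lowest per kilobase of exon, and 105 times the next lowest once Ccnd2 was set aside. Among the 8 listed S/G2/M genes the span was 67.9 times, and among the 15 listed transcriptional genes it was 13.7 times. Per kilobase of coding sequence these spans were 326, 121 and 14.4 times, in the same order. The S/G2/M span leaves out Ccnb3, which was not listed although no other gene overlaps it. With Ccnb3 at 0 that span has no value, so the order of G1 and S/G2/M holds for listed genes only. The 3 roles have unequal numbers of genes, the span of a list rests on its extremes, and no test was made.

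Median levels were 15.4 CPM per kilobase for G1, 18.5 for S/G2/M and 9.13 for transcriptional genes, with unlisted members entered at 0. Over listed members alone the S/G2/M median was 41.9, the G1 median stayed at 15.4 and the transcriptional one was 10.4. Differences between roles were taken between medians of log2(CPM per kilobase + 1). In a role with an even number of genes that median is the mean of the middle 2 logs, so it need not match the log of the median level above. For S/G2/M the middle genes were Ccnf and Cdc25b, which lie far apart. The difference of G1 from S/G2/M was -0.0030 on the log scale. It was 0.35 by CPM, where the median levels were in the other order (101.1 for G1 and 111 for S/G2/M), so the order of these roles also depended on how the median was taken. By coding length G1 was the higher on both, with medians of 80.4 and 59.1 and a log2 difference of 0.78. The log2 difference of transcriptional genes was -0.69 from S/G2/M and -0.69 from G1. These last differences kept their sign under all 7 alternatives, between -2.04 and -0.23 for the first and between -1.67 and -0.51 for the other. The medians of the remaining roles were 13.8 for inhibitors, 5.90 for E2f-Rb and 7.75 for the other members.

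Levels of cyclins and their kinases were unequal in several complexes. Summed over D-type cyclins the level was 67.0 CPM per kilobase, against 178.8 for Cdk4 and Cdk6 together. The E-type cyclins summed to 88.3, against 19.9 for Cdk2, and the A- and B-type cyclins to 260 against 55.8 for Cdk1. Per kilobase of coding sequence these kinase-to-cyclin ratios were 1.21, 0.670 and 0.524, so the directions held with smaller distances. Cyclin H and Cdk7 were near equal, with a ratio of 1.03 by exon and 1.23 by coding length. The summed kinases exceeded the cyclins for Cdk9 with cyclin T (2.14) and lay below for Cdk12 and Cdk13 with cyclin K (0.451). For Cdk11b with the L-type cyclins the ratio was 0.720 by exon and 0.332 by coding length, but 1.76 by uncovered bases. Cdk2 and Cdk1 also bind cyclins outside their sets here, and levels of RNA do not give levels of protein.

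**Figure D4:**
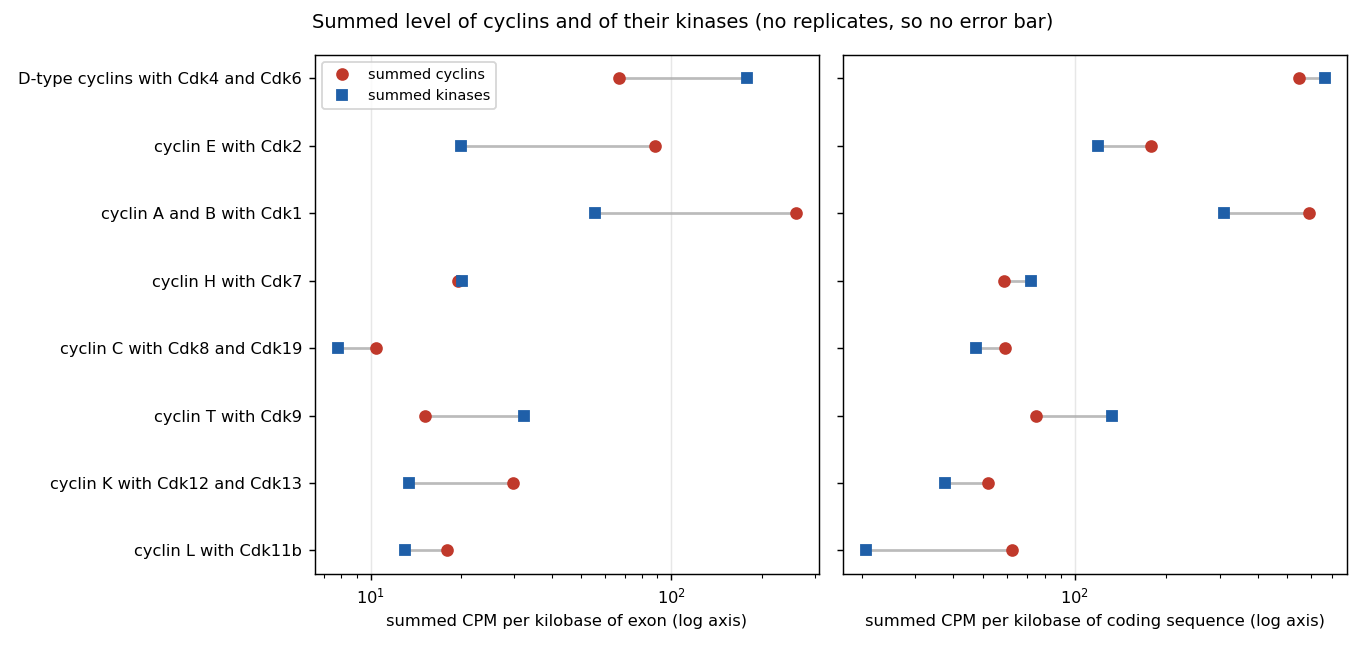
Summed CPM per kilobase (x axis, log) of the cyclins (circles) and kinases (squares) of 8 sets of partners, by exon length on the left and coding length on the right. Kinases exceed cyclins for the D-type and T-type sets, and cyclins exceed kinases for the E-type, A- and B-type, C, K and L sets, on both scales.

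The other members ran from abundant broadly expressed genes to ones close to absent. After Ccng1, the highest were Cdk16, an X-linked kinase that works with the membrane-bound cyclin Y, with 60.2 CPM per kilobase (57.9 to 62.5), and Ccni with 45.5 (43.2 to 47.9). Ccni has 2 processed pseudogenes with 96.7% and 97.5% identity. Ccny and Ccnyl1, the Y-type cyclins, had 15.7 (14.7 to 16.7) and 9.503 (8.50 to 10.6), and a pseudogene matches most of the Ccnyl1 coding sequence at 99.3% identity. Cdk5, best known from neurons, had 248 counts and 11.4 (10.04 to 12.9), whereas its neuronal activator Cdk5r1 had 3 counts and its other activator Cdk5r2 was not listed. Ccng2, a relative of Ccng1, had 77 counts and 1.41 (1.11 to 1.76), and Ccno, a gene of multiciliated cells, had 78 counts and 3.05 (2.41 to 3.803). Cdk17 and Cdk18, relatives of Cdk16, had 7.59 and 5.55, while Cdk14 had 0.259 (0.192 to 0.343) and Cdk20 0.678 (0.496 to 0.904).

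Partners and targets of these genes were mostly abundant. Of 28 partners and upstream regulators 27 reached CPM 1, and the list had a median of 24.6 CPM per kilobase. The most counts were in Mybl2 with 6678 counts, Rbbp4 with 6048 and Skp1a with 5707, or 144, 69.0 and 258 CPM per kilobase. Mybl2 and Rbbp4 encode parts of the complexes that act at cell cycle promoters, and Skp1a, which lies wholly inside another gene, a subunit of the Skp2 ubiquitin ligase. The fewest counts among the listed were in Myc, with 14 counts and 0.514 (0.281 to 0.863), against 1738 counts and 52.7 for Mycn (50.2 to 55.2), and Fbxw7, inside another gene, was not listed. Of 20 replication genes known as E2f targets 18 passed the same minimum, and the list had a median of 51.9, led in counts by Uhrf1 with 6420 counts, Mcm6 with 6158 and Mcm4 with 5518, or 150, 132 and 153 CPM per kilobase. The lowest of these was Orc1 with 72 counts and 2.07, with 87.0% of its exons under another gene, and Cdt1 and Tk1, both inside other genes, were not listed. Of 20 late cell cycle genes 19 passed that minimum, and the list had a median of 30.7, led in counts by Top2a with 6011 counts, Ube2c with 3498 and Bub1b with 2281, or 66.6, 134 and 53.3 CPM per kilobase, and with the fewest counts in Birc5 (865, or 25.4 CPM per kilobase). Per kilobase the lowest listed was Cenpf at 8.65. Other genes cover 62.8% of the exons of Ube2c. Prc1 lay inside another gene and was not listed. At 10 CPM per kilobase or more were 18 of 28 partners, 17 of 20 E2f targets and 18 of 20 late genes, beside 21.2% of all annotated genes.

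**Figure D5:**
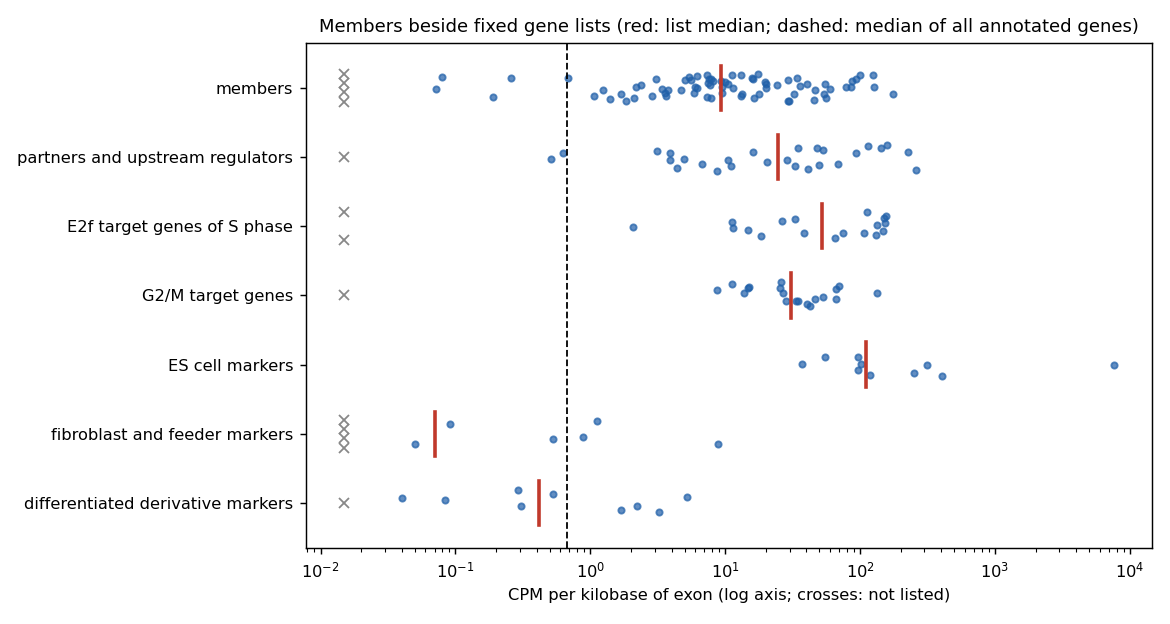
CPM per kilobase of exon (x axis, log) of the members and of 6 gene lists (rows), with 1 point per listed gene, crosses for genes not listed, red bars for list medians with unlisted genes at 0, and a dashed line for the median of all annotated genes. The member median is 9.30, below those of the partner (24.6), E2f target (51.9) and late (30.7) lists and above the 0.677 of all genes.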

How the data were processed

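Poly(A) RNA of 2 libraries of 1 group was analysed. As deposited, the values were raw counts in 1 column, running from 1 to 117610 over protein-coding gene symbols. The submitters' processing notes name Trimmomatic 0.38, SAMtools, HISAT2 and featureCounts of Subread 1.6.4 with GRCm38.p6. Sources used here do not give the annotation release, the strand setting, the counted feature or whether both libraries were pooled. The deposited rows ran from high to low count per base of gene span, introns included (Spearman rho across genes 0.9999). Whether reads in introns were counted was not tested.

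Of the symbols, 14896 were found in GENCODE M21 (GRCm38), 182 more through RefSeq synonyms, and 49 in neither. The 21992 annotated symbols served as background. Counts were scaled to CPM and divided by the union of exon lengths. Overlap was the share of exonic bases that another annotated gene's span covers. Depth gave a Poisson half-width of 64.5% at 11 counts. Intervals cover counting error only, since these reads carried no stated molecular identifiers and can be copies of 1 molecule.

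Alternatives were CPM alone, coding length, other minimums, listed members alone, little overlap, a pseudocount of 0.1 in place of 1, and uncovered bases. No test was run, since there was 1 group with 1 column. The members and lists were chosen with earlier results of these data known. Every member may be named, and of other lists the 3 highest and the lowest by CPM, any unlisted gene and any marker. Further list genes (Pkmyt1, Mnat1, Trp53, Mdm2, Mycn and Cenpf) were named after their values were seen. Related coding sequences were sought with blastn 2.17.0, at 95% identity or more over 200 bases or more. The functions were tested on simulated counts. Tables were handled in pandas 2.3.3 (Python 3.11.15), intervals came from scipy 1.17.1, and numpy 2.4.6 and matplotlib 3.10.9 were also used.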

Additional observations from a re-analysis of the deposited data

How the results depend on the processing

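No paired analysis was possible because the counts have 1 column and 1 group, and leaving out a library could not be done for the same reason. The number of members detected (73) stayed within 1.5 times under every minimum tried (CPM 0.5, CPM 5, 10 counts, any count) and among members with little overlap. The members' share of counts was 0.556% without the 24 other members.

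Median levels depended on the length used. By CPM alone they were 101.1 for G1, 111 for S/G2/M, 65.5 for transcriptional genes, 38.5 for inhibitors, 33.7 for E2f-Rb and 31.5 for the others. Per kilobase of coding sequence they were 80.4, 59.1, 35.6, 68.7, 23.1 and 19.0 in that order. Over listed members alone, S/G2/M and transcriptional medians were 41.9 and 10.4, and the same at CPM 1 or more, where the others were at 9.30. With at most 0.1 of exonic bases under another gene, G1 (4 genes) was at 35.6, S/G2/M (6 genes) at 42.5 and E2f-Rb at 8.06. Per kilobase outside other genes, an alternative chosen after seeing the data, the medians were 19.3 for G1, 29.3 for S/G2/M, 11.5 for transcriptional genes and 9.42 for the others.

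Differences of roles are between medians of logs. That of G1 from S/G2/M turned positive by CPM (0.35), by coding length (0.78) and with a pseudocount of 0.1 (0.014), while the median levels themselves changed order by coding length alone among these 3. It was -1.34 over listed members and at CPM 1 or more, -0.38 with little overlap and -0.58 outside other genes. The difference of transcriptional from S/G2/M was -0.23 by CPM, -0.37 by coding length, -1.84 over listed members and at CPM 1 or more, -2.04 with little overlap and -1.27 outside other genes. That of transcriptional from G1 was -1.15 by coding length and -1.67 with little overlap. Of the 18 pair ratios, Ccnb1 to Ccnb2 turned to 1.59 by coding length and 1.72 by CPM, and Ccnt1 to Ccnt2 to 0.793 and 0.794. By construction these settings differ from the main one in the length alone. A gene at 11 counts is known only to within 64.5%.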
